A study of Mus musculus with 28 samples.

Results

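The 48 DNA damage repair genes examined here were taken as a list of homologous recombination, Fanconi anemia, mismatch repair, checkpoint, end joining and excision repair genes. The table of read counts held 47 of them among its 13519 genes, and Atrip was not analysed here. Bulk RNA had been sequenced from 28 samples of mouse colon epithelium organoids on the C57BL/6N strain, grown from 7 donor mice of 4 genotypes. Organoids of each donor were present as duplicates 1 and 2, and each of the resulting 14 cultures was sampled after ethanol (EtOH) and after 3.5 µM 4-hydroxytamoxifen (4-HT). Exposure lasted 24 hours and RNA was isolated 3 days after induction. The question addressed is how the transcripts of the repair machinery changed when 4-HT activated Cre, and whether that change differed with the Braf or the Trp53 allele.

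All 4 genotypes carried Villin::CreERT2, a tamoxifen-inducible recombinase driven in intestinal epithelium by the Villin promoter, and were homozygous for Apc flox. AC organoids carried nothing else (1 donor, 2 cultures). PAC organoids carried in addition 1 Trp53 LSL-R172H allele, BAC organoids 1 Braf floxV600E allele, and BPAC organoids both (2 donors and 4 cultures each). In these 3 genotypes replicates 1 and 2 are duplicate 1 of donors 1 and 2, and replicates 3 and 4 are duplicate 2; in AC, replicates 1 and 2 are both duplicates of the donor. A loxP-stop-loxP (LSL) allele is silent until Cre removes the stop, so PAC and BPAC cells have a single active Trp53 copy before induction and mutant p53 beside the wild-type copy afterwards. Because every group carried Apc flox and the EtOH arm of each culture was its own control, the change with 4-HT includes recombination of Apc and any effect of 4-HT itself in all genotypes. AC rests on a single donor, which limits every comparison that includes it, and the duplicates of a donor are organoid clones of the same mouse taken, per the study, at different passages, so p-values measure in part the spread between passages of a mouse.

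Cells repair DNA by pathways that divide the lesions among them. Double-strand breaks are either rejoined end to end by the Ku proteins and ligase IV or copied from the sister chromatid by homologous recombination, in which the MRN complex starts resection and BRCA1, PALB2 and BRCA2 load the recombinase. Fanconi anemia proteins unhook interstrand crosslinks, mismatch repair corrects replication errors, excision repair removes damaged bases or bulky adducts, and the ATM and ATR kinases pass the signal to CHEK2 and CHEK1. Many of these genes are transcribed most strongly in S phase, and loss of Apc is known to sustain Wnt signalling and proliferation in the colon epithelium.

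Total counts ranged from 20577276 to 40068718 per sample. All 10 colon epithelium markers were counted, with Epcam between 1512 and 3126 CPM (counts scaled to a common library size) in all 28 samples, and 2 of 10 stromal, endothelial and immune markers were, of which Pecam1, at most 2.71 CPM, had log2 fold changes of -1.14, -1.41, -1.68 and -1.79 in AC, PAC, BAC and BPAC (called lower in the last 2, and in PAC too with a block on culture) and Cd3e was not called; the part of such cells in the changes of the repair genes was not tested. Trp53, which checks the labels, read 51.4 to 66.1 CPM in the 8 EtOH samples with the LSL allele and 97.9 to 121.6 CPM in the 6 without it, and 147.6 to 227.0 CPM after 4-HT. Apc and Braf counts per gene do not tell the alleles apart; Apc rose in all genotypes, and Braf lay between 20.2 and 27.9 CPM in every sample. Both PAC 4-HT samples of duplicate 1 stood apart: they were more alike than any other replicate pair (mean chi-square 2.38 against 8.54 for the next pair), and each held Xist counts (636 and 834) together with Y-linked counts (1543 and 1822), which 0 of the other 26 samples did at over 100 counts of each. The count of repair genes called in PAC, the calls of named genes in PAC and the Braf contrasts of repair genes are also given without them. PAC counts of the other gene lists and of all genes are given only with them. 4-HT samples of duplicate 1 were also the deepest in organoids with the Braf allele, at 37438687 to 40068718 counts against 26594188 to 30306835 without it.

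Many repair genes rose with 4-HT, and more of them passed the test in organoids with the Braf allele. Among the 47, AC organoids showed 6 higher and 0 lower, PAC organoids 13 higher and 0 lower, BAC organoids 31 higher and 1 lower, and BPAC organoids 33 higher and 0 lower (edgeR's quasi-likelihood test with Benjamini-Hochberg adjustment over all genes, adjusted p under 0.01). The same rule called 3.00%, 11.2%, 20.3% and 22.0% of all genes higher in these genotypes, in that order, and 4.25%, 12.2%, 21.5% and 23.0% lower. Without the PAC 4-HT samples of duplicate 1 the PAC count was 6, and without PAC replicate 1 or 2 it was 8, and Chek1, Ercc2, Msh6, Rad54l, Topbp1 and Xrcc6 were the 6 still called. The AC count was 0 without either AC culture (17 and 16 members with an unadjusted p under 0.05 in edgeR, against 27 with both) and 2 without PAC replicate 1. With a replicate block, which pairs the EtOH and 4-HT samples of a culture, the counts of risers became 9, 19, 35 and 36, and Xpa fell in BAC and BPAC. The block also raised the number of all 13519 genes called higher. That number went from 406 to 1007 in AC, 1511 to 2234 in PAC and 2751 to 3414 in BAC. Median log2 fold changes of the 47 genes were 0.45, 0.41, 0.61 and 0.67 in the same order, where the medians of all genes were 0.01, -0.03, -0.04 and -0.04. In bulk RNA a larger share of cells expressing a gene and more of its RNA per cell cannot be told apart.

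Single cultures were ordered likewise. The median change of the repair genes, in log2 CPM with a prior count of 2, averaged 0.46 ± 0.02 (SD, n = 2) over AC cultures, 0.36 ± 0.13 (n = 4) over PAC cultures, 0.62 ± 0.06 (n = 4) over BAC cultures and 0.66 ± 0.13 (n = 4) over BPAC cultures. The 8 cultures with the Braf allele lay between 0.54 and 0.84 and the 6 without it between 0.21 and 0.52, so the groups did not overlap. Without both PAC cultures of duplicate 1 the latter range was 0.21 to 0.47. PAC and AC cultures overlapped through 1 of those (0.52), without which PAC lay at 0.21 and 0.36, below both AC cultures at 0.44 and 0.47. BPAC and BAC overlapped. Of the 47 genes, 27 were higher after 4-HT in all 14 cultures (18.5% of all genes were) and 0 were lower in all. Over the 12 cultures left without the PAC duplicate 1 cultures, 28 members were higher in all (19.7% of all genes).

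**Figure D1:**
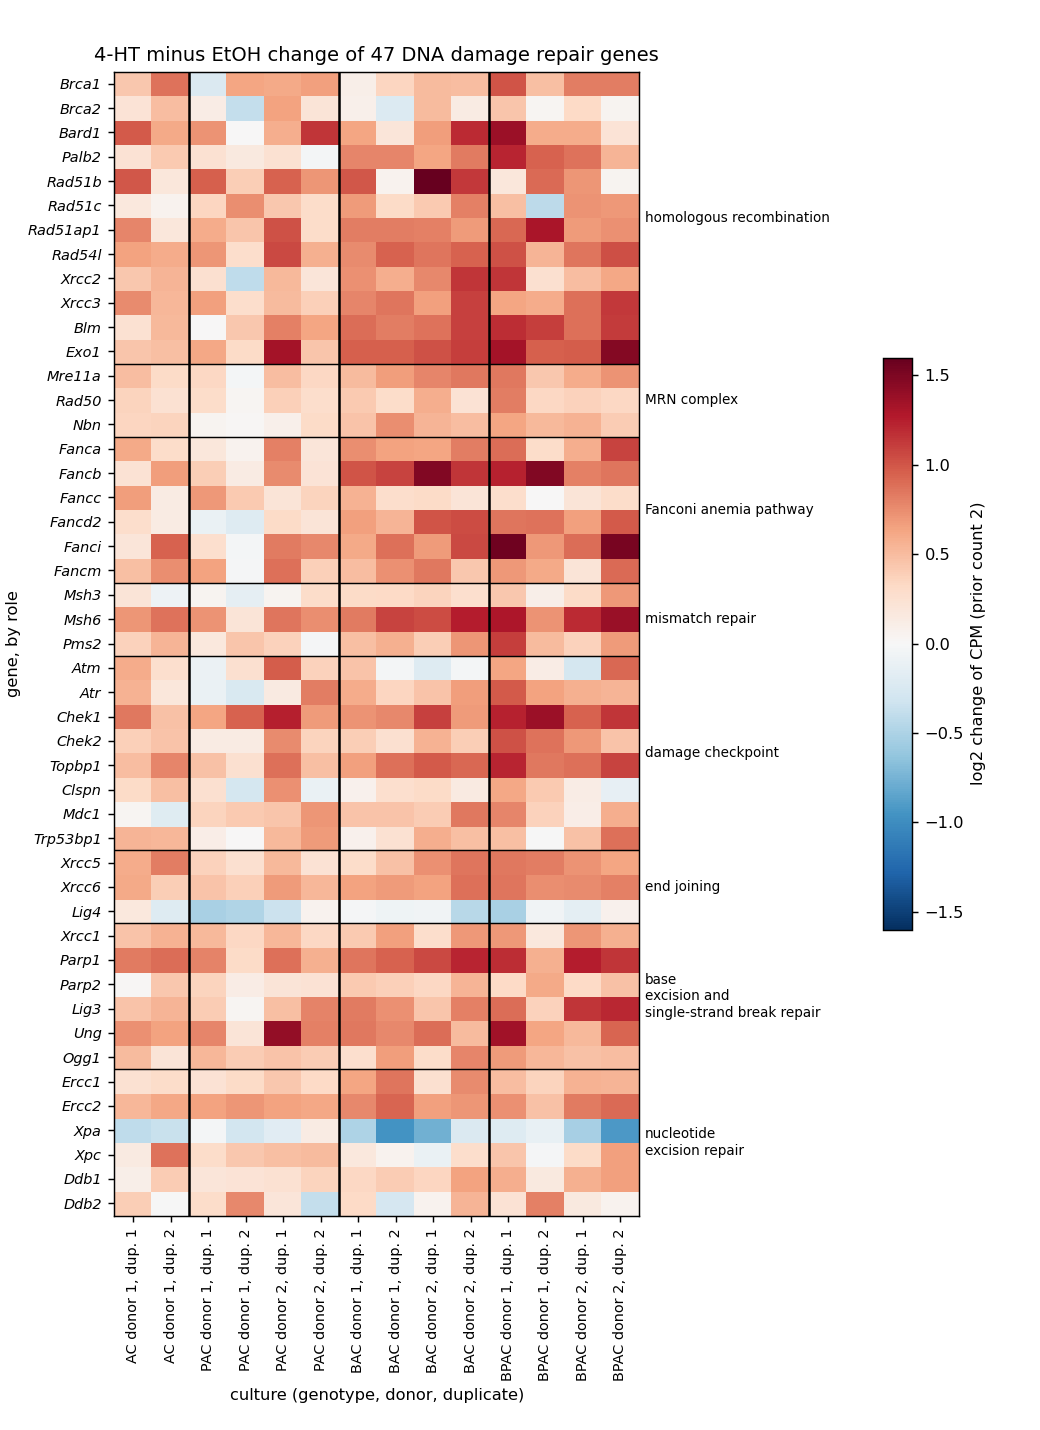
Change of each repair gene with 4-HT in each culture. Rows are the 47 genes grouped by role, columns the 14 cultures by genotype, and colour the log2 change of CPM (red higher after 4-HT, blue lower). Most rows are red in all cultures, the BAC and BPAC columns are the darkest, and Xpa and Lig4 are the rows that are mostly blue.

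The genes shared between genotypes came from several roles. Msh6, Parp1, Rad54l, Topbp1 and Xrcc6 rose in all 4 genotypes (2.66% of all genes did), and Xrcc5 also rose in AC. With the replicate block Chek1, Xrcc1, Xrcc3 and Xrcc5 rose in all 4 genotypes as well (the share of all genes was not counted). Another 6, namely Chek1, Ercc2, Exo1, Rad51ap1, Ung and Xrcc1, rose in PAC, BAC and BPAC, for 11 members in all (9.12% of all genes). BAC and BPAC shared 30 risers (18.5% of all genes). In at least 1 genotype 36 members were called (52.0% of all genes), and 11 were called in none: Atm, Atr, Bard1, Brca2, Clspn, Ddb2, Lig4, Mdc1, Rad51b, Rad51c and Trp53bp1. With the replicate block 7 of these were called in none, since Atr, Mdc1, Rad51b and Trp53bp1 passed in at least 1 genotype. Without the PAC samples in doubt, Parp1, Exo1, Rad51ap1, Ung and Xrcc1 were not called in PAC, and Xrcc6 was not called in AC (log2 fold change 0.50, edgeR adjusted p = 0.0112).

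Both Ku subunits, which hold broken ends for joining, rose while their ligase did not. Xrcc5 (Ku80) read 25.9 and 22.2 CPM in the EtOH samples of AC and 39.1 and 39.2 CPM after 4-HT, a log2 fold change of 0.70 ± 0.17 (SE; edgeR adjusted p = 0.00639). Over all genotypes its 14 EtOH samples spanned 20.9 to 35.8 CPM (median 25.9) and its 14 4-HT samples 31.0 to 47.5 CPM (median 38.6). The log2 fold changes in PAC, BAC and BPAC were 0.35 (not called, edgeR adjusted p = 0.0252, but 0.00429 with the replicate block), 0.57 and 0.75. Xrcc6 (Ku70) rose by log2 fold changes of 0.50 in AC to 0.79 in BPAC, with changes of 0.38 to 0.88 in every culture and a log2 fold change in PAC of 0.44 without the samples in doubt (edgeR adjusted p = 0.00916, against 0.52 with them). Lig4, the ligase of this pathway, was higher in 3 of 14 cultures and had log2 fold changes of -0.33 to -0.05. In AC the Xrcc5 call was lost without AC replicate 1 (edgeR adjusted p = 0.0910), AC replicate 2 (edgeR adjusted p = 0.185) or PAC replicate 1 (edgeR adjusted p = 0.0103).

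Of 6 base excision and single-strand break repair genes, all passed the test in BAC and in BPAC, 3 in PAC and 1 in AC (4 in PAC and 2 in AC with the replicate block). The 3 in PAC were Parp1, Ung and Xrcc1, and none of them was called there without the samples in doubt. All 6 had positive log2 fold changes in every genotype, with an unadjusted p under 0.05 in edgeR for 6 in PAC and 4 in AC. The difference in change by the Braf allele was called for 0 of the 6 (median 0.15, 2 with an unadjusted p under 0.05 in edgeR). Parp1, the main sensor of single-strand breaks and the target of PARP inhibitors, showed the largest rise in AC (log2 fold change 0.87 ± 0.16, edgeR adjusted p = 0.00104). AC went from 50.6 and 52.1 CPM with EtOH to 90.5 and 97.1 CPM after 4-HT, and PAC from 53.4 to 62.1 CPM to 68.3 to 98.3 CPM. BAC went from 51.2 to 72.9 CPM to 119.6 to 131.7 CPM, and BPAC from 58.01 to 74.1 CPM to 109.8 to 145.2 CPM. Every culture was higher after 4-HT, and all 8 Braf cultures ended above all 6 others. In PAC the log2 fold change of 0.65 became 0.51 without the doubtful duplicate 1 samples (edgeR adjusted p = 0.0122), and in AC the call was lost without AC replicate 1 (edgeR adjusted p = 0.0603) or AC replicate 2 (edgeR adjusted p = 0.0578).

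Ung, the glycosylase that removes uracil from DNA, spanned 5.35 to 11.5 CPM in the 14 EtOH samples (median 7.64) and 9.15 to 15.8 CPM in the 14 4-HT samples (median 13.1), with an overlap. It had a log2 fold change of 0.77 ± 0.19 in PAC, 0.77 in BAC and 0.84 in BPAC. Its changes per culture ran from 0.20 to 1.41 without the Braf allele and from 0.51 to 1.35 with it, so the alleles did not separate it. The PAC call was lost without PAC replicate 1, 2 or 4 (edgeR adjusted p = 0.0199, 0.0571 and 0.0110) and without the doubtful samples (log2 fold change 0.62, edgeR adjusted p = 0.0663). The BAC call was lost without BAC replicate 1 or 2 (edgeR adjusted p = 0.0118 and 0.0136) and the BPAC call without BPAC replicate 1 (edgeR adjusted p = 0.0134). Lig3, Xrcc1, Parp2 and Ogg1, the other genes of this role, had log2 fold changes of 0.71, 0.50, 0.42 and 0.48 in BAC and were higher in all 14 cultures.

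Among 3 mismatch repair genes, Msh6 rose in all 4 genotypes. Msh6 encodes a mismatch recognition protein. It read 46.7 and 49.1 CPM in AC with EtOH and 76.2 and 89.9 CPM after 4-HT. Over all genotypes the EtOH samples spanned 40.1 to 56.4 CPM (median 46.5) and the 4-HT samples 61.1 to 112.3 CPM (median 93.2), with no overlap. Its log2 fold changes were 0.79 ± 0.18, 0.63 ± 0.12, 1.04 ± 0.13 and 1.14 ± 0.13 in AC, PAC, BAC and BPAC (edgeR adjusted p = 0.00364, 0.000414, 2.26e-07 and 4.92e-08). The AC call was lost without AC replicate 1 (edgeR adjusted p = 0.0829) or AC replicate 2 (edgeR adjusted p = 0.131). Without the samples in doubt the PAC value was 0.66 (edgeR adjusted p = 0.00632). Pms2, a subunit of the nicking complex, rose in BAC (0.54) and BPAC (0.67), and Msh3, which handles small loops, rose in BPAC alone among the 4 genotypes (0.38, against 0.32 in BAC with an edgeR adjusted p of 0.0197, which the replicate block brought to 0.00895).

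Of 8 checkpoint genes 1, 2, 3 and 3 rose in AC, PAC, BAC and BPAC, namely Topbp1, Chek1 and Chek2. With the replicate block these counts were 2, 3, 5 and 6, with Chek1 added in AC, Mdc1 in PAC, Atr and Mdc1 in BAC, and Atr, Mdc1 and Trp53bp1 in BPAC. Chek1, the effector kinase downstream of ATR, read 8.45 and 9.502 CPM in AC with EtOH and 15.2 and 13.2 CPM after 4-HT. In all 14 EtOH samples it lay between 5.45 and 10.6 CPM and in all 14 4-HT samples between 13.0 and 19.0 CPM. Those ranges did not overlap. Log2 fold changes were 0.66 ± 0.19 in AC, which missed the threshold (edgeR adjusted p = 0.0203, and 0.00728 with the replicate block), 0.85 ± 0.14 in PAC, 0.81 ± 0.14 in BAC and 1.18 ± 0.14 in BPAC. Leaving out the samples in doubt gave 0.95 for PAC (edgeR adjusted p = 0.00119). Topbp1, the activator of ATR, rose in all 4 genotypes (0.65, 0.50, 0.86 and 1.00; 0.56 in PAC without the samples in doubt), and Chek2, the effector of ATM, rose in BAC (0.40) and BPAC (0.75).

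Atr, the kinase that answers stalled replication, was called in no genotype without the block, and its EtOH samples (10.3 to 22.4 CPM) overlapped its 4-HT samples (12.8 to 28.2 CPM). Its changes per culture were -0.25 to 0.82 without the Braf allele (median 0.16) and 0.34 to 0.98 with it (median 0.58), and the largest log2 fold change was 0.67 ± 0.26 in BPAC (edgeR adjusted p = 0.0312). The block called it higher in BAC and BPAC (edgeR adjusted p = 0.0038 and 0.000396). Atm, the kinase that answers double-strand breaks, had log2 fold changes of 0.39, 0.33, 0.02 and 0.34 in AC, PAC, BAC and BPAC and was higher in 9 of 14 cultures. Its duplicates differed within a treatment: AC read 7.78 and 14.5 CPM with EtOH and 11.7 and 17.4 CPM after 4-HT in duplicates 1 and 2. Trp53bp1, which protects broken ends from resection, lay between 12.6 and 26.7 CPM with EtOH and between 19 and 31.4 CPM after 4-HT. It had log2 fold changes of 0.54, 0.33, 0.32 and 0.44 with standard errors of 0.20 to 0.28, and the replicate block called it in BPAC (edgeR adjusted p = 0.00663). Clspn and Mdc1, adaptors of the same pathways, were not called without the block, with log2 fold changes of -0.10 to 0.55.

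**Figure D2:**
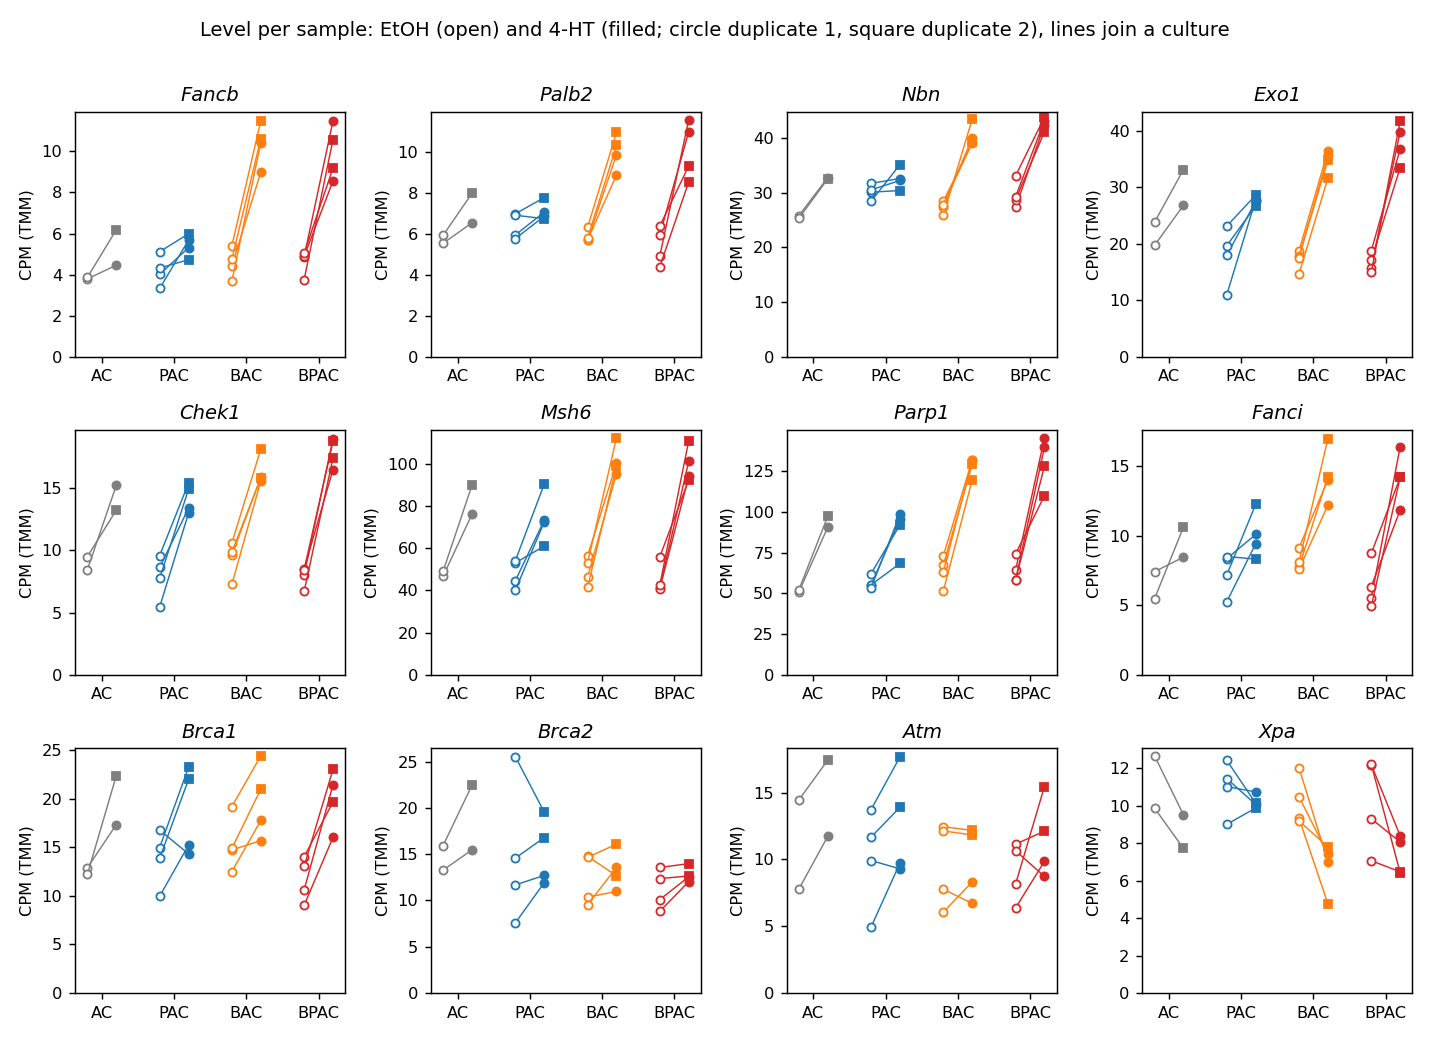
Level of 12 repair genes in each sample. Each panel is a gene, the y axis its CPM from 0, open symbols EtOH and filled symbols 4-HT, with a line joining the samples of a culture. Fancb, Palb2 and Nbn end higher in both Braf genotypes than in the others from similar starting levels, Chek1 and Exo1 rise in every culture, and Brca2 and Atm show lines in both directions.

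Homologous recombination split into genes called higher in several genotypes and genes called in few or none. Of 12 members 1, 3, 7 and 8 rose in AC, PAC, BAC and BPAC. With the replicate block the counts were 2, 5, 8 and 8, with Xrcc3 added in AC, Blm and Xrcc3 in PAC and Rad51b in BAC. Of the 3 in PAC without the block, only Rad54l was still called without the samples in doubt. Exo1, the nuclease that extends resection, read 14.7 to 18.8 CPM in BAC with EtOH and 31.6 to 36.5 CPM after 4-HT, and 15 to 18.7 and 33.5 to 41.7 CPM in BPAC. Its log2 fold changes were 1.01 ± 0.15 in BAC and 1.19 ± 0.15 in BPAC against 0.63 ± 0.15 in PAC and 0.46 ± 0.20 in AC, the last not called. All 14 EtOH samples (up to 23.8 CPM) lay below all 14 4-HT samples (from 26.7 CPM). In PAC the call was lost without PAC replicate 1 or 2 (edgeR adjusted p = 0.0119 and 0.0121) and without both 4-HT samples in doubt (edgeR adjusted p = 0.0199).

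Brca1 and Brca2 are the best known genes of the pathway. Brca1 rose in BPAC, from 10.6, 14.01, 9.02 and 13.0 CPM to 21.4, 19.7, 16.0 and 23.0 CPM (log2 fold change 0.78 ± 0.19, edgeR adjusted p = 0.00127). That call was lost without BPAC replicate 1 (log2 fold change 0.70, edgeR adjusted p = 0.0143). In AC, PAC and BAC the log2 fold changes of 0.66, 0.43 and 0.36 did not pass. Brca2 was called in no genotype, with log2 fold changes of 0.38 ± 0.35, 0.04 ± 0.25, 0.11 ± 0.25 and 0.19 ± 0.25 in AC, PAC, BAC and BPAC. Its EtOH samples spanned 7.58 to 25.6 CPM and its 4-HT samples 10.97 to 22.5 CPM, so the groups overlapped over most of their range. Bard1, Rad51b and Rad51c were counted at low levels (EtOH medians of 1.67, 1.10 and 1.73 CPM), with standard errors of 0.23 or more. Those were larger than for Exo1, but Brca2, at an EtOH median of 12.8 CPM, had 0.25 to 0.35. The source of the spread was not tested. Bard1 and Rad51b were not called without the block but were higher in all 14 cultures (median changes 0.62 and 0.81), and Rad51c was in 13 (0.42).

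The MRN complex, which finds breaks and starts their resection, had 0 of 3 genes called in AC and in PAC, 2 in BAC and 3 in BPAC. Mre11a, its nuclease, had log2 fold changes of 0.40, 0.28, 0.69 and 0.65, and Rad50, which bridges the ends, 0.30, 0.24, 0.38 and 0.45, in AC, PAC, BAC and BPAC. The replicate block also called Rad50 in BAC (edgeR adjusted p = 0.00113). Unadjusted p-values were under 0.05 for 2 of the 3 genes in AC and for 1 in PAC in edgeR. Nbn is described with the Braf contrast.

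Of 6 Fanconi anemia genes 0 were called higher in AC, 1 in PAC (Fancc), 6 in BAC and 5 in BPAC. The difference in change by the Braf allele was called for 1 of them (2 with the replicate block). Fancc was not called in PAC without the samples in doubt (edgeR adjusted p = 0.0434) or in BAC with the replicate block (edgeR adjusted p = 0.0147). In AC 5 of the 6, and in PAC 4, had an unadjusted p under 0.05 in edgeR. Fanci, a subunit of the complex that is clamped on DNA at a crosslink, had log2 fold changes of 0.82 ± 0.17 in BAC and 1.15 ± 0.18 in BPAC, where it went from 4.92 to 8.72 CPM with EtOH to 11.9 to 16.4 CPM after 4-HT. Fancd2, its partner, read 9.57 and 17.2 CPM in AC with EtOH and 11.7 and 19.0 CPM after 4-HT, and 8.40 to 13.6 and 16.7 to 19.9 CPM in BAC. Fancd2 rose in BAC (0.79 ± 0.21) and BPAC (0.85 ± 0.21), and had log2 fold changes of 0.19 and 0.03 in AC and PAC. The Fancd2 calls were lost without BAC replicate 2 or 4 (edgeR adjusted p = 0.0169 and 0.0209) and BPAC replicate 4 (edgeR adjusted p = 0.0101).

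Nucleotide excision repair held the 1 member called lower. Ercc2 (XPD), a helicase of TFIIH, spanned 3.71 to 6.62 CPM with EtOH (median 5.09) and 6.09 to 9.73 CPM after 4-HT (median 8.96), which overlapped slightly. It rose in PAC, BAC and BPAC by log2 fold changes of 0.66 (0.57 without the samples in doubt, edgeR adjusted p = 0.00994), 0.77 and 0.73, with culture changes of 0.47 to 0.94. Xpa, which verifies the lesion and positions the nucleases, fell in BAC by 0.60 ± 0.17 on the log2 scale (edgeR adjusted p = 0.00429). In BAC it read 10.5, 9.33, 12.04 and 9.19 CPM with EtOH and 7.43, 4.76, 7.01 and 7.81 CPM after 4-HT. Xpa was lower in 13 of 14 cultures, with log2 fold changes of -0.39, -0.10 and -0.47 in AC, PAC and BPAC that did not pass. With the replicate block the BPAC fall did pass (edgeR adjusted p = 0.00954). Its BAC call was lost without BAC replicate 1, 2 or 3 (edgeR adjusted p = 0.0128, 0.0316 and 0.0231) and with scaling by library size alone (log2 fold change -0.44, edgeR adjusted p = 0.0355).

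Xpc and Ddb2 encode damage sensors of global genome repair. Xpc rose in PAC from 17.6 to 19.6 CPM with EtOH to 24.0 to 26.4 CPM after 4-HT (log2 fold change 0.43 ± 0.13, edgeR adjusted p = 0.00984), a call that 9 of 14 left-out cultures ended (edgeR adjusted p up to 0.0526) and that was also lost without the samples in doubt (edgeR adjusted p = 0.0481). Ddb2, at 2.00 to 5.07 CPM over all samples, had log2 fold changes of 0.14 to 0.33. Its partner Ddb1, by far the most abundant member per length (61.7 CPM per kilobase of exon with EtOH, median), rose in BAC (0.42) and BPAC (0.49).

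For the Braf allele, the change with 4-HT in the 2 genotypes that carry it was averaged and set against the average of the other 2. The difference was positive for 39 of 47 repair genes, with a median of 0.23 against -0.01 for all genes. Of the 47, 16 had an unadjusted p under 0.05 in edgeR, a count not set against the share of all genes at that cut. The test was passed by 3, all higher with the allele: Fancb, Palb2 and Nbn (3.05% of all genes were called higher and 3.55% lower). The 3 have different roles. FANCB belongs to the core complex that marks FANCD2 and FANCI, PALB2 joins BRCA1 to BRCA2, and NBN is the MRN subunit that brings ATM to a break.

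Fancb lies at chrX:164980592-164997272 on the plus strand (GRCm38, GENCODE annotation). It read 3.79 and 3.87 CPM in AC with EtOH and 4.46 and 6.18 CPM after 4-HT. In PAC it read 4.01, 4.32, 3.33 and 5.12 CPM with EtOH and 5.32, 4.73, 5.68 and 5.99 CPM after 4-HT. The gene therefore stayed below 6.2 CPM in every organoid sample that lacked the Braf allele. In BAC it went from 4.43, 5.41, 3.68 and 4.75 CPM to 8.996, 11.5, 10.4 and 10.6 CPM. In BPAC it went from 4.87, 3.76, 4.89 and 5.04 CPM to 11.5, 10.6, 8.56 and 9.20 CPM. With EtOH the 4 genotypes overlapped, and after 4-HT all 8 samples with the allele lay above all 6 without it. The difference in change was 0.72 ± 0.17 on the log2 scale (edgeR adjusted p = 0.00583).

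Palb2 lies at chr7:122107262-122132985 on the minus strand. It read 5.54 and 5.93 CPM in AC with EtOH and 6.54 and 7.98 CPM after 4-HT, and 5.77 to 6.98 and 6.74 to 7.77 CPM in PAC. In BAC it went from 5.69, 6.32, 5.71 and 5.79 CPM to 9.87, 10.96, 8.88 and 10.3 CPM, and in BPAC from 4.92, 4.40, 5.97 and 6.39 CPM to 11.6, 8.55, 10.99 and 9.32 CPM. Again the 8 induced samples with the allele lay above the 6 without it. The difference in change was 0.59 ± 0.14 (edgeR adjusted p = 0.00645).

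Nbn lies at chr4:15957925-15992589 on the plus strand and showed a smaller but tighter difference. It read 25.8 and 25.3 CPM in AC with EtOH and 32.8 and 32.5 CPM after 4-HT, and in PAC 28.4 to 31.7 and 30.4 to 35.2 CPM. In BAC it went from 28.5, 25.9, 27.5 and 27.8 CPM to 39.1, 43.5, 40.0 and 39.2 CPM and in BPAC from 27.4, 28.7, 29.3 and 33.1 CPM to 42.5, 41.2, 43.2 and 43.8 CPM. Induced samples were separated by allele here too. How many of all genes separate so was not counted, nor how many separate by treatment as Msh6, Chek1 and Exo1 did. After 4-HT, 15.6% of all genes were called higher with the Braf allele. The difference in change was 0.31 ± 0.08 (edgeR adjusted p = 0.00798).

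The 3 calls lay close to the threshold. Within duplicate 1 alone the differences were 0.75, 0.65 and 0.35 for Fancb, Palb2 and Nbn (edgeR adjusted p = 0.0496, 0.0264 and 0.0248) and within duplicate 2 alone 0.71, 0.52 and 0.28 (edgeR adjusted p = 0.174, 0.275 and 0.353). With the 4-HT samples of PAC duplicate 1 left out they were 0.73, 0.57 and 0.31 (edgeR adjusted p = 0.0121, 0.0165 and 0.0181), so that 0 members passed at 16 with an unadjusted p under 0.05. Leaving out each culture in turn gave 0.62 to 0.84 for Fancb, 0.53 to 0.65 for Palb2 and 0.28 to 0.34 for Nbn, and ended the call in 9, 9 and 11 of 14 cases. Each culture but BPAC replicate 4 ended at least 1 of the 3 calls when left out. Without AC replicate 1 the edgeR adjusted p-values were highest, at 0.0672, 0.0584 and 0.0568. With the counts of each donor's duplicates summed the differences were 0.76, 0.64 and 0.35 (edgeR adjusted p = 0.0241, 0.0307 and 0.0317), and with scaling by library size alone 0.69, 0.55 and 0.28 (edgeR adjusted p = 0.0120, 0.0137 and 0.0323), so that both ended all 3 calls.

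For 5 members the cultures did not overlap. Nbn, Fancd2, Blm, Palb2 and Fancb changed more in all 8 Braf cultures than in all 6 others (4.90% of all genes did), and 0 members changed less. Without the PAC cultures of duplicate 1, 7 members did (7.57% of all genes). Fancd2 had changes of 0.55 to 1.04 with the allele and -0.20 to 0.31 without it, and Blm, the helicase that resolves recombination intermediates, 0.82 to 1.18 and 0.01 to 0.81. Neither passed the main test (edgeR adjusted p = 0.0399 and 0.0160). With a replicate block, in which the EtOH and 4-HT samples of a culture were paired, both did, which made 5 members called. That count was not set against the share of all genes called with the block. With each donor's duplicates summed, 0 members were called and 19 had an unadjusted p under 0.05 in edgeR. The lowest differences were those of Xpa (-0.29), Xpc (-0.26), Atm (-0.18) and Fancc (-0.13), and none of these passed.

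**Figure D3:**
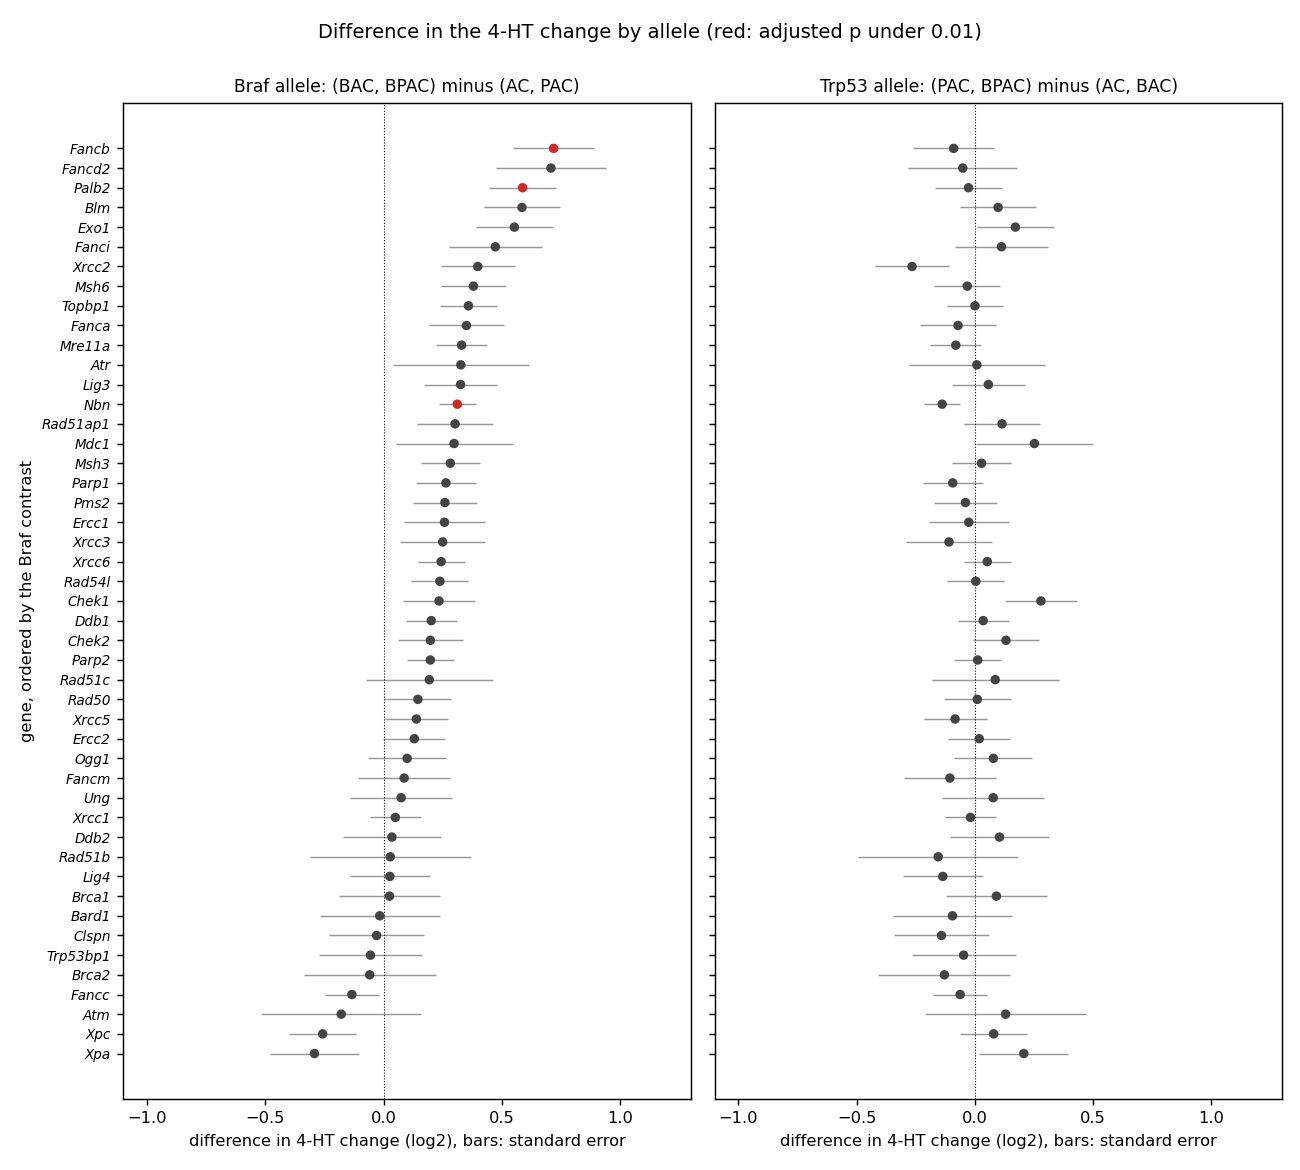
Difference in the 4-HT change by allele for the 47 repair genes. The left panel gives (BAC, BPAC) minus (AC, PAC), the right panel (PAC, BPAC) minus (AC, BAC), on the log2 scale with standard errors, in the same gene order; red marks an edgeR adjusted p under 0.01. Fancb, Palb2 and Nbn are red on the left, and no gene is on the right, where estimates lie between -0.27 and 0.28.

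The Trp53 allele made no detectable difference to the change of any repair gene. 0 of 47 passed edgeR's test, 0 had an unadjusted p under 0.05, and limma-voom and DESeq2 also called 0 (0.0148% of all genes were called). With the replicate block 0 passed and 1 had an unadjusted p under 0.05 in edgeR. The estimates ran from -0.27 ± 0.16 (Xrcc2) to 0.28 ± 0.15 (Chek1) with a median of 0.00. Trp53 itself differed by 0.82 in the same contrast. The list of 20 p53 target genes likewise held 0 called in this contrast, with a median of -0.01.

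Levels were also compared within each treatment. With EtOH, 0 members differed by the Braf allele (7 with an unadjusted p under 0.05 in edgeR; 0 called by limma-voom and DESeq2; 0.0296% of all genes called) or by the Trp53 allele (2 with an unadjusted p under 0.05 in edgeR; 0 called by the other tools; 0.0592% of all genes called). After 4-HT, 17 members were higher with the Braf allele and 0 were lower, where 15.6% of all genes were higher and 14.6% lower. These 17 were Blm, Ddb1, Ercc2, Fanca, Fancb, Fanci, Lig3, Mre11a, Msh6, Nbn, Palb2, Parp1, Parp2, Rad54l, Topbp1, Xrcc2 and Xrcc6. The level difference was largest for Fancb (0.92 ± 0.12, edgeR adjusted p = 2.66e-06), followed by Fanci and Blm (both 0.54). The count was 5 without AC replicate 1, and 15 without the PAC samples in doubt. The Trp53 allele went with 0 called after 4-HT (0 with an unadjusted p under 0.05 in edgeR; 0 called by limma-voom and DESeq2; 0.0444% of all genes called). The comparison of levels after 4-HT uses the same induced samples as the comparison of changes. The 7 and 2 members with an unadjusted p under 0.05 in edgeR with EtOH were not set against the share of all genes at that cut.

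Cell cycle genes moved with the repair genes in every culture. Of 19 S phase genes, 12 rose in AC and 18 in each of PAC, BAC and BPAC, with median log2 fold changes of 0.81, 0.77, 1.12 and 1.15. Of 15 G2 and M phase genes 3, 10, 14 and 15 rose, with medians of 0.48, 0.47, 0.99 and 1.01. With the replicate block 17 S phase genes rose in AC, and 10, 13, 15 and 15 G2 and M phase genes in the 4 genotypes. The Braf allele contrast of changes called 2 S phase genes and 6 G2 and M phase genes higher (4 and 11 with the block), with medians of 0.35 and 0.48, larger than the 0.23 of the repair genes. Per culture, the G2 and M median was 0.82 to 1.15 with the allele and 0.24 to 0.73 without it, while the S phase medians overlapped (0.97 to 1.41 and 0.55 to 1.14). Their part in the change of the repair genes was not tested. Of 10 colon epithelium markers 2, 4, 6 and 6 were lower in AC, PAC, BAC and BPAC and 0 were called higher, with 4 to 9 of them at an unadjusted p under 0.05 in edgeR. With the block 4, 5, 6 and 8 were lower and Krt18, which had log2 fold changes of 0.27, 0.42, 0.52 and 0.50, was called higher in PAC, BAC and BPAC. Their part was not tested either. Of 20 p53 target genes, 1, 3, 7 and 7 rose and 2, 4, 3 and 6 fell (2, 7, 9 and 10, and 3, 5, 4 and 6, with the block). Without the block 3.00%, 11.2%, 20.3% and 22.0% of all genes rose and 4.25%, 12.2%, 21.5% and 23.0% fell, in the same order.

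**Figure D4:**
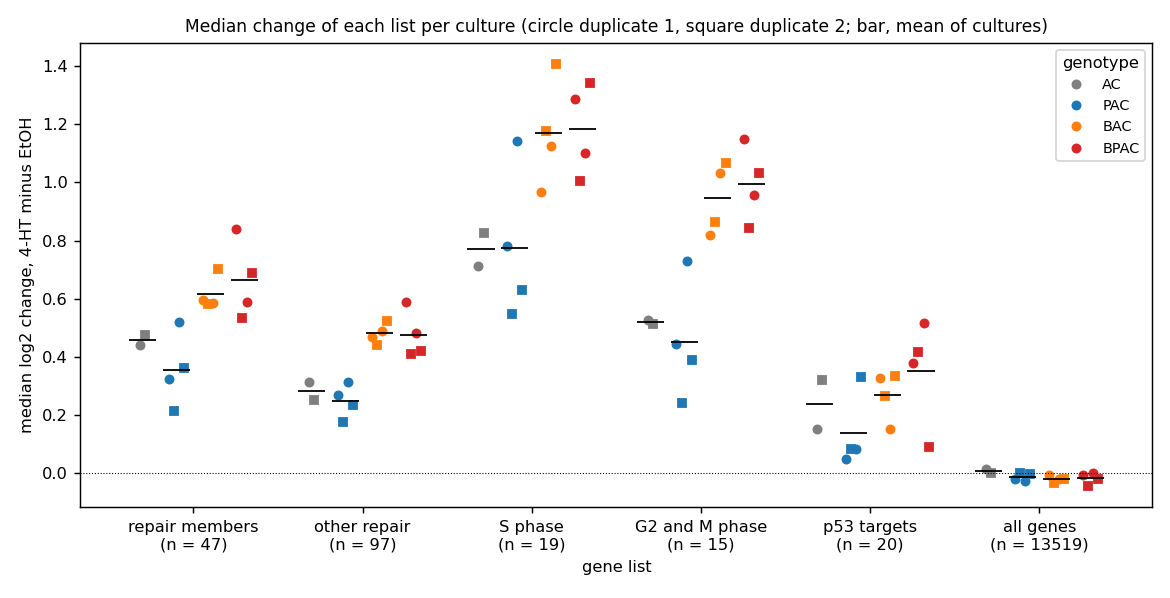
Median change with 4-HT of each gene list in each culture. The x axis gives the list and its number of genes, the y axis the median log2 change, colours the genotype, circles duplicate 1, squares duplicate 2 and bars the mean of the cultures. Repair genes lie between 0.21 and 0.84, below the S phase genes in each culture and above all genes, whose medians lie between -0.04 and 0.01.

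The other DNA repair genes of the table, 97 outside the list, also had more risers in the 2 Braf genotypes, with smaller medians. Of these 8, 25, 48 and 57 rose in AC, PAC, BAC and BPAC, with medians of 0.29, 0.23, 0.44 and 0.43, and 0, 1, 2 and 2 fell. Risers among all genes were also more frequent in the Braf genotypes, at 3.00%, 11.2%, 20.3% and 22.0% in the same order. With the block 17, 29, 57 and 63 rose and 0, 1, 3 and 4 fell, where 1007, 2234 and 3414 of all 13519 genes rose in AC, PAC and BAC. Paxx, an end joining factor that stabilises Ku on DNA, fell in PAC, BAC and BPAC (log2 fold changes -0.53, -0.84 and -0.82), Uvssa fell in BAC (-0.81) and Parp3 in BPAC (-0.80). Of the 8 other end joining genes at most 1 rose in any genotype. In the Braf contrast 5 of 97 passed, where 3.05% of all genes were called higher and 3.55% lower. Each of the 5 had a larger change in the Braf genotypes: Hus1 (0.69) and Rad9a (0.62), which form part of the clamp that activates ATR, Tdp1 (0.70), Usp1 (0.37) and Gtf2h1 (0.40). With the block 11 passed, 10 of them higher and Parp3 lower (difference -1.02), a count not set against the share of all genes called with the block. The Trp53 contrast called 0 of 97 (0 with an unadjusted p under 0.05 in edgeR; 1 with the pairing of cultures).

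Because members moved together, their promoters were searched for letters of cell cycle motifs. RefSeq windows of 300 bases (250 before and 50 after the start, GRCm38.p6) were held for 40 of the 47 genes. The E2F-type letters GCGGGAA, on either strand, occurred in a window of 13 of the 40 genes (32.5%). Among all counted genes with a window they did so for 991 of 10114 (9.80%). They occurred in 8 of 28 members that rose in BPAC and in 5 of 12 that were not called there, a difference that was not tested. The CHR-type letters TTTGAA, on either strand, occurred in 2 of 40 (5.0%) against 14.3% of all genes. A match describes letters and is no evidence of binding. The E2F-type letters can overlap their own reverse complement, and a window was counted once. Among the genes named for the largest changes, 4 windows held the E2F-type letters and are printed, to show where they lie, 5′ to 3′ on the strand of the gene with the match in capitals. The Fancb stretch lies upstream of the gene, at chrX:164980376-164980495, before the start. The Chek1 (chr9:36726609-36726638), Msh6 (chr17:87975055-87975084) and Fanci (chr7:79392345-79392374) matches begin 43, 16 and 18 bases after the start, and 30 bases are given. In Msh6 the letters are on the opposite strand.
Fancb: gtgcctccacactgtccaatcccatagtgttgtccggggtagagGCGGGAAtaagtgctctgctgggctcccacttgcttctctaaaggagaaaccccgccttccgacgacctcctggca
Chek1: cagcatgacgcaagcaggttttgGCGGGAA
Msh6: tcctcccgactTTCCCGCcagcggcggccg
Fanci: cgtggagtagaGCGGGAAttttggaaggat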

How the data were processed

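Reads of 28 organoid samples had been trimmed with Trimmomatic 0.39 and aligned with STAR 2.5.2b to GRCm38/mm10 by the authors, who deposited raw read counts per gene; the counting program, annotation and strand setting are not given in the sources used here. All 13519 genes exceeded the row sum minimum of 2. Gene symbols (13479 of 13519) came from GENCODE vM21. Groups were genotype and treatment from the labels. Counts were scaled by TMM and fitted in edgeR 4.0.16 (R 4.3.3) with 8 groups sharing 1 estimate of the spread (adjusted p under 0.01); limma 3.58.1 (voom) and DESeq2 1.42.0 were alternatives. CPM values are TMM scaled, and changes per culture are log2 CPM with a prior count of 2. EtOH and 4-HT samples of a culture share a donor, and their deviations from group means correlated at 0.25 to 0.53; a replicate block on culture was fitted as an alternative. Totals of 20577276 to 40068718 counts per sample leave sampling error small except for genes near 1 CPM. Named genes are those past the threshold in an allele contrast of changes, the 3 largest rises and falls per genotype, and leading genes of each role. Members and lists were chosen with earlier results of these data known. Fits were tested on simulated data. Figures were drawn with matplotlib 3.10.9 in Python 3.11.15.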

Additional observations from a re-analysis of the deposited data

Results flagged for a closer look

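The change of Brca1 with 4-HT in PAC donor 1, duplicate 1, was -0.23 on the log2 scale, whereas the other 3 PAC cultures lay between 0.61 and 0.66; it was the 1 gap of 60 groups of 4 cultures past Dixon's 95% critical value, which chance alone passes in about 1 in 20 groups. That culture includes a 4-HT sample that held both Xist and Y-linked counts, and whether this bears on Brca1 was not tested.

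The change with 4-HT was larger with the Braf allele for Fancb (difference 0.72), Palb2 (0.59) and Nbn (0.31), by an interaction test in edgeR. All 8 cultures with the allele changed more than all 6 without it for each of the 3 genes, as for 4.90% of all genes. The 3 were picked by the same changes, so their separation is no added support. The EtOH levels of these genes did not pass a test for the Braf allele.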

How the results depend on the processing

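Over 39 gene results named above and 26 alternatives each, 893 values kept the call, 121 lost it with the same direction and 0 reversed. Members called in AC (6) became 10 with DESeq2, 16 with library size alone, 1 with donor counts summed, 2 and 0 with duplicate 1 or 2 alone (13 with an unadjusted p under 0.05 in the latter), 13 at an adjusted p under 0.05, and 0 to 7 on leaving out a culture. In PAC (13) they became 33 with library size alone, 0 with duplicate 2 alone (15 unadjusted), 6 without the 4-HT samples of duplicate 1, 24 at 0.05 and 8 to 14 on leaving out a culture. In BAC (32) and BPAC (33) duplicate 2 alone gave 15 and 16, and leaving out a culture 25 to 33 and 25 to 34. For the Braf contrast of changes (3) the replicate block, which pairs the samples of a culture, gave 5, DESeq2 5, library size alone 0, donor counts summed 0, duplicate 1 or 2 alone 0, leaving out the PAC 4-HT samples of duplicate 1 0, summing them (chosen after seeing the data) 1, an adjusted p under 0.05 8, and leaving out a culture 0 (AC replicate 1 or 2, PAC replicate 1, BAC replicate 2 or 4, or BPAC replicate 1) to 5 (PAC replicate 2); the edgeR fits that called 0 held 9 to 19 members with an unadjusted p under 0.05. For levels after 4-HT by the Braf allele (17), duplicate 1 or 2 alone gave 11 and 1, an adjusted p under 0.05 gave 27, and leaving out a culture 5 to 19. For the 4-HT change the replicate block gave 9, 19, 36 and 37 called members in AC, PAC, BAC and BPAC. Of all 13519 genes it called 2223, 4717 and 7017 in AC, PAC and BAC, against 980, 3166 and 5660 without it. Why these counts moved was not tested; summing, single duplicates and left-out cultures leave fewer samples. Where 1 sample of a group remained, it was assumed to vary like the others. Library size alone raised the median 4-HT change of all genes by over 0.1 in each genotype (AC 0.01 to 0.23, PAC -0.03 to 0.20, BAC -0.04 to 0.13, BPAC -0.04 to 0.18) and the split of all genes called higher and lower in AC from 406 and 574 to 1511 and 302, in PAC from 1511 and 1655 to 3388 and 737, in BAC from 2751 and 2909 to 3881 and 2066, and in BPAC from 2979 and 3110 to 4331 and 2038; the members' medians became 0.67, 0.64, 0.78 and 0.88, all still above those of all genes. Depth limits the genes near 1 CPM, such as Rad51b, Bard1 and Rad51c.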
